A study of Mus musculus with 6 samples.

Results

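The fatty acid elongases and desaturases of mouse liver were followed as a family of 8 genes, namely the elongases Elovl5, Elovl6, Elovl3 and Elovl1, the stearoyl-CoA desaturases Scd1 and Scd2, and the front-end desaturases Fads1 and Fads2. They were taken as every probe set of the array whose platform annotation names one of these genes and no other. Of the 8 genes, 7 had such a probe set, with 11 probe sets in all, among 8251 genes so represented on the array; Fads2 was not analysed here. The livers came from C57BL/6 mice, an inbred laboratory strain, kept for 12 weeks on a Western-style diet rich in fat (3 high-fat arrays) or on a low-fat diet (3 low-fat arrays). No allele, transgene or drug is labelled for either diet, although the keywords shared by all 6 arrays name LDL receptor deficiency. The labels give no age, sex, time of day or diet composition, nor whether an array held 1 mouse or a pool, so p-values measure the spread between these arrays, which may be technical.

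Elongases add a short carbon unit to a fatty acyl-CoA in the endoplasmic reticulum, and desaturases place a double bond in it. ELOVL6 lengthens palmitate, SCD1 and SCD2 turn saturated into monounsaturated acids, and ELOVL5 with FADS1 and FADS2 builds long polyunsaturated acids from dietary precursors. ELOVL1 and ELOVL3 work on saturated and monounsaturated acids of longer chains. In liver many of these genes are known targets of SREBP-1c, a transcription factor of fatty acid synthesis, and polyunsaturated fat is known to lower that drive.

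The 250 bases upstream of the annotated start of Elovl5, the member that rose, and of Elovl6, an elongase that did not pass the test, are shown because the same diet was set against both. They are RefSeq sequences of mouse assembly GRCm38.p6, both on the plus strand, at chr9:77917115-77917364 for Elovl5 and chr3:129532136-129532385 for Elovl6, and capitals mark every motif match. RefSeq entries were at hand for 4 of the 8 genes.
Elovl5: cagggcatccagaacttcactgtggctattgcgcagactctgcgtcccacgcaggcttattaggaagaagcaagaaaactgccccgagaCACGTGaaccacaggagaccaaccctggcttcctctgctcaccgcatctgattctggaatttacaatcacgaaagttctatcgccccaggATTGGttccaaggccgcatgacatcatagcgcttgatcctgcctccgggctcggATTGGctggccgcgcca
Elovl6: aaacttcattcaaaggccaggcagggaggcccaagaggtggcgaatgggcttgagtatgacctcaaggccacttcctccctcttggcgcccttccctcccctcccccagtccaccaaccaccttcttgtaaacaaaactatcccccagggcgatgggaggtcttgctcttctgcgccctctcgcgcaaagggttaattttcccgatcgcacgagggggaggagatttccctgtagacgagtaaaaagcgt
The motifs searched on both strands were the CCAAT box (CCAAT), an E-box (CACGTG), the cAMP response element (TGACGTCA) and a sterol regulatory element (TCACNCCAC). The Elovl5 window held 2 CCAAT boxes on the minus strand, beginning 71 and 17 bases before the start, and 1 E-box 161 bases before it, with no overlap between them. The Elovl6 window held none of these motifs as spelled here. Of the other members with an entry, Elovl1, which did not pass the test, has a pair of windows, of which 1 held a CCAAT box on the plus strand 35 bases before the start and the other no motif, and the Fads2 window held none. Among 32851 mouse windows of the same length, 33.8% held a CCAAT box, 6.02% this E-box and 1.05% this sterol element. A match describes letters only and was not tested as a binding site.

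On the high-fat diet Elovl5 transcript rose and the other 6 measured genes did not pass the test. The values compared are probe set intensities on the arrays' deposited scale, set to a floor of 68.9 and taken as log2, and limma's adjusted p over all 8950 tested probe sets had its threshold at 0.05. All 11 member probe sets were tested, and 1 passed, against 0.827% of all tested probe sets. Before adjustment 3 of the 11 had a p under 0.05, against 9.07% of all tested probe sets, the share to set beside every unadjusted count given here. Of the 11, 6 had a log2 fold change above 0 and 5 below 0, and their median was 0.32, beside 0.0026 over all tested probe sets. The arrays of both diets did not overlap for 7 of the 11, against 14.1% of all tested probe sets, and several of the 7 read the same gene.

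**Figure D1:**
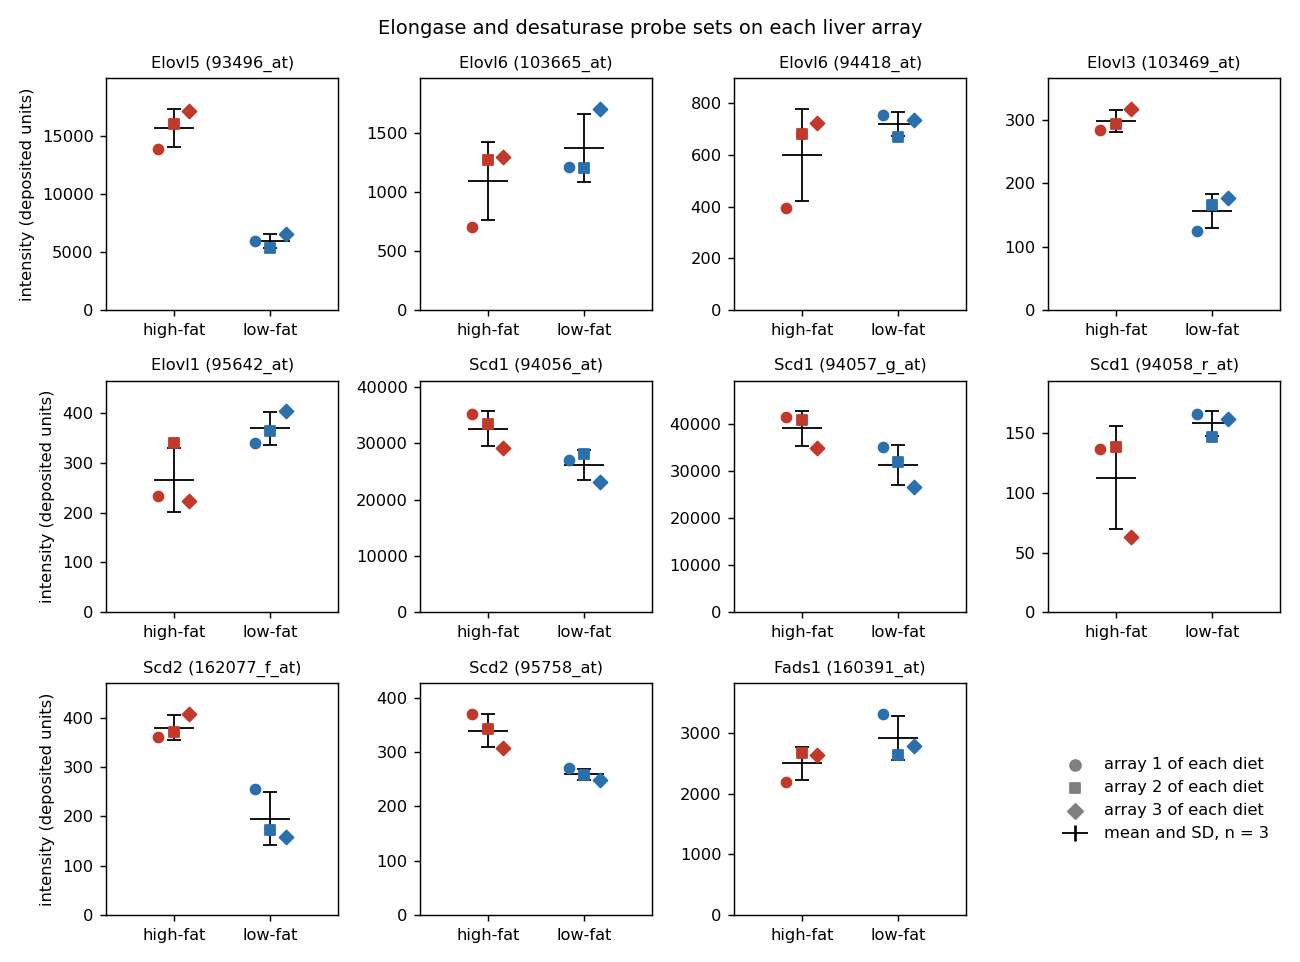
Intensity of each member probe set (vertical axis, deposited units, from 0) on the 3 high-fat and 3 low-fat arrays; symbols mark the array number, and the bar is the mean with its SD. Elovl5 lies between 13886 and 17142 on the high-fat diet and between 5307 and 6554 on the low-fat diet, while Elovl6 and Fads1 overlap between the diets.

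Elovl5, which lengthens polyunsaturated fatty acids, has 1 probe set, 93496_at, so no other probe set of the gene could be read beside it. Elovl5 read 13886, 16041 and 17142 on high-fat arrays 1, 2 and 3, against 5978, 5307 and 6554 on low-fat arrays. The lowest high-fat array lay 7331 units above the highest low-fat array. Its mean was 15689.8 ± 1657 on the high-fat diet and 5946 ± 624 on the low-fat diet (SD, n = 3 each), a 2.64-fold rise with a 95% interval from 2.12 to 3.28. On the log2 scale the rise was 1.40 ± 0.14 (SE), and limma's adjusted p was 0.00242. By size of change Elovl5 held rank 59 and by p-value rank 11 among the 8950 tested probe sets. The call survived leaving out any 1 array, where the adjusted p ran from 0.00258 to 0.0222. It was lost when dim probe sets were not filtered out, with an adjusted p of 0.0869 at the same fold change.

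Elovl6, the elongase of palmitate, has a pair of probe sets, and both had fold changes below 0. The brighter read 708, 1274 and 1298 on high-fat arrays, against 1213, 1208 and 1708 on low-fat arrays. High-fat array 1 stood below the other 5, and the remaining high-fat arrays lay within the low-fat range. The log2 fold change was -0.37 ± 0.25 (SE), with a 95% interval from -0.92 to 0.19 and an adjusted p of 0.764. The dimmer probe set read 396.5, 682 and 725 on high-fat arrays, against 756, 668 and 737.5 on low-fat arrays. High-fat array 1 was again the lowest, and the log2 fold change was -0.31 ± 0.23 (SE; adjusted p = 0.792). Without high-fat array 1 both values moved nearer to 0, to -0.08 and -0.03. The brighter stood at -0.20 without low-fat array 3, and the dimmer at -0.47 without high-fat array 3.

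These elongases were compared within arrays, as the log2 value of Elovl5 minus that of the brighter Elovl6 probe set. This difference was 4.29, 3.65 and 3.72 on high-fat arrays, against 2.30, 2.14 and 1.94 on low-fat arrays. The diets did not overlap, and the ratio of Elovl5 to Elovl6 was 3.40-fold higher on the high-fat diet. The exact two-sided permutation test gave p = 0.1, the smallest that 3 arrays against 3 allow, and 0.2 after Benjamini-Hochberg adjustment over the 2 pairs compared. The change was 1.76 on the log2 scale and lay between 1.56 and 1.88 under the alternatives tried. Most of it is the rise of Elovl5 already called, at 1.40, so the comparison is not separate support for that rise.

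Elovl3, an elongase of long saturated and monounsaturated acids, read 284, 293 and 318 on high-fat arrays, against 125, 165 and 177 on low-fat arrays. All high-fat arrays lay above all low-fat arrays, yet the probe set did not pass the test. Its mean was 298 ± 17.4 on the high-fat diet and 156 ± 27.2 on the low-fat diet (SD, n = 3 each). The fold was 1.93, with a 95% interval from 1.33 to 2.81 and an adjusted p of 0.180, which ran from 0.0525 to 0.400 over the alternatives. In mouse liver Elovl3 is known to cycle over the day and to be higher in males, and genes of both kinds were read beside it. Of 15 tested circadian clock and output genes, 4 fell, 0 rose and 11 did not pass, and their median log2 fold change was -0.70. Dbp, a transcription factor of clock output, read 117, 237 and 177 on high-fat arrays, against 1119, 1162.5 and 939 on low-fat arrays (adjusted p = 0.00242). The other 3 that fell were the deubiquitinase gene Usp2 and the rhythmic transcripts Noct and Per2, with limma's adjusted p-values of 0.0135, 0.0172 and 0.0287. Usp2 lost its call without high-fat array 2, Noct without high-fat array 2 or either of low-fat arrays 2 and 3, and Per2 without any array but high-fat array 3, while Dbp kept its own. The clock gene Arntl, at 255, 274.5 and 354 on high-fat arrays against 82.5, 94.7 and 136 on low-fat arrays, had an adjusted p of 0.0523. Arntl passed as a rise under some alternatives and not others. Limma's adjusted p was 0.0443 after quantile normalization and 0.0433 after common median scaling. The part of the clock genes in the Elovl3 values was not tested. Of 5 tested male-biased liver genes 0 passed limma's test (1 had an unadjusted p under 0.05), and the summed intensity of the list ran from 74718 to 97730 on the high-fat diet and from 73824 to 96294 on the low-fat diet. Mup3, a major urinary protein gene, and Serpina1e, a serine protease inhibitor gene, make up most of that sum, and the median log2 fold change of the 5 was -0.19. Cyp7b1, an oxysterol hydroxylase gene higher in male mouse liver, read 3785, 1938 and 2642 on high-fat arrays, against 3939.6, 4762 and 5690.1 on low-fat arrays. These groups did not overlap, at -0.82 on the log2 scale with an adjusted p of 0.256. Hsd3b5, a steroid dehydrogenase gene, stood at -0.52 (adjusted p = 0.618) with overlap. The part of these genes in the Elovl3 values was not tested. Of 5 measured female-biased genes, 4 were below the floor on all 6 arrays.

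Elovl1, the elongase of very long saturated chains, read 233, 339.0 and 223 on high-fat arrays, against 339.1, 363 and 403 on low-fat arrays. The diets were separated by 0.1 units between high-fat array 2 and low-fat array 1. The log2 fold change was -0.50 ± 0.23 (SE), with a 95% interval from -1.02 to 0.03 and an adjusted p of 0.587.

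**Figure D2:**
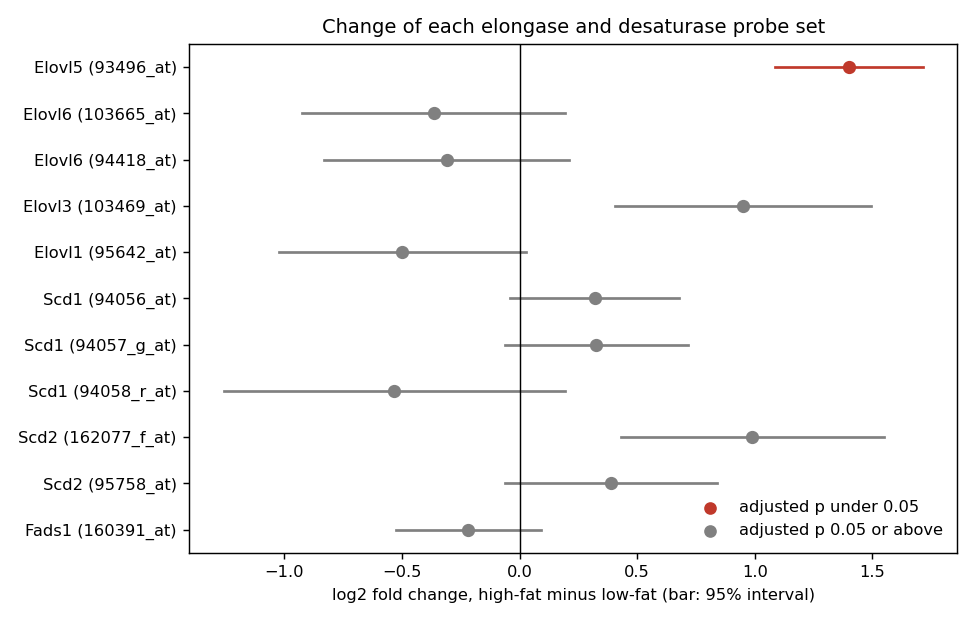
Log2 fold change of each member probe set, high-fat minus low-fat (horizontal axis), with its 95% interval; red marks an adjusted p under 0.05. Elovl5, at 1.40, is the one red point, and the intervals of Elovl3 and of the Scd2 probe set 162077_f_at also lie above 0 but missed the threshold after adjustment.

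Scd1, the main stearoyl-CoA desaturase of liver, read among the brightest probe sets of the array. The probe set 94056_at read 35246, 33446 and 29204 on high-fat arrays, against 27127, 28149 and 23147 on low-fat arrays. The high-fat arrays lay above the low-fat arrays by a narrow margin between high-fat array 3 and low-fat array 2. The fold was 1.25, with a 95% interval from 0.974 to 1.60 and an adjusted p of 0.612. The probe set 94057_g_at read 41381, 40807.5 and 34755 on high-fat arrays, against 35022, 31947.5 and 26579.8 on low-fat arrays. Here high-fat array 3 lay below low-fat array 1, so the diets overlapped, and the fold was 1.25 (adjusted p = 0.649). Its log2 fold change was 0.33, and 0.22 without low-fat array 3. By intensity 94057_g_at held ranks from 4 to 16 and 94056_at ranks from 13 to 29 of 12488 probe sets, near the top of the measured range, and a loss of response there was not tested.

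A further Scd1 probe set, 94058_r_at, was dim and pointed the other way. It read 137, 139 and 62.8 on high-fat arrays, against 166, 147 and 162 on low-fat arrays, and high-fat array 3 was below the floor. It stood at -0.53 ± 0.32 (SE) on the log2 scale, and its adjusted p was 0.724. It stood at -0.20 without high-fat array 3 and at -0.18 without both arrays numbered 3. Its suffix marks relaxed rules of probe selection. The Scd1 probe sets thus disagreed in sign, and 0 of the 3 passed limma's test or an unadjusted p of 0.05.

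Scd2, the desaturase isoform best known from brain and fat tissue, also has a pair of probe sets. The probe set 162077_f_at read 360.3, 370.2 and 408 on high-fat arrays, against 256, 171.5 and 158 on low-fat arrays. All high-fat arrays lay above all low-fat arrays, at 1.99-fold with a 95% interval from 1.35 to 2.93 and an adjusted p of 0.176. Its suffix marks probes shared within a gene family, so signal from Scd1 and from Scd2 cannot be told apart on it. The probe set 95758_at read 369, 343 and 307 on high-fat arrays, against 270.3, 258 and 249 on low-fat arrays. The groups again did not overlap, with a smaller fold of 1.31, a 95% interval from 0.958 to 1.79 and an adjusted p of 0.632. Over the alternatives the adjusted p of 162077_f_at ran from 0.0620 to 0.454 and that of 95758_at from 0.461 to 0.826.

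In the RefSeq gene order Scd1 and Scd2 lie in a row with Scd3 and Scd4, and Fads1, Fads2 and Fads3 lie side by side. The desaturase isoforms were compared within arrays as the log2 value of Scd2 (95758_at) minus that of Scd1 (94057_g_at). The mean difference was -6.84 ± 0.05 on the high-fat diet and -6.90 ± 0.15 on the low-fat diet (SD, n = 3 each), where the level of either probe set carries its own scale and its change between diets is what is compared. That change was 0.06 on the log2 scale (exact permutation p = 0.6, adjusted p = 0.6). It depends on the Scd2 probe set used, which was the brighter by mean log2 value. The log2 fold change of 95758_at was 0.39 and that of 94057_g_at 0.33, while the Scd2 probe set left out, 162077_f_at, stood at 0.99. The test does not show that the isoforms respond alike, since 0.1 was the smallest p it could give.

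Macrophages and fat tissue are known sites of Scd2, and their markers were read beside it. Of 11 tested macrophage markers 0 passed limma's test and 3 had an unadjusted p under 0.05, while all 11 had a log2 fold change above 0, with a median of 0.38. Mpeg1, a pore-forming protein gene of macrophages, read 1209.8, 1659 and 1892 on high-fat arrays, against 960.5, 810.5 and 759 on low-fat arrays, at 1.86-fold with an adjusted p of 0.0742. Tyrobp, a signalling adaptor gene of myeloid cells, read 567, 614 and 581 on high-fat arrays, against 500.6, 331 and 303 on low-fat arrays, at 1.59-fold with an adjusted p of 0.353. Neither overlapped between the diets, and Mpeg1 passed without high-fat array 1 (limma's adjusted p = 0.0296). The summed intensity of the 13 measured ran from 11416 to 13742 on the high-fat diet and from 8350.3 to 11409 on the low-fat diet, and 1 of the 13, Itgam, was not above the floor on any array. Of 4 tested adipocyte markers 0 passed, also before adjustment, with 3 log2 fold changes above 0 and 1 below. The summed intensity of the 5 measured ran from 1467 to 1748.5 on the high-fat diet and from 1099.8 to 1736 on the low-fat diet, with Retn below the floor throughout. Lep makes up most of that sum. Fabp4 was at 0.60 on the log2 scale (limma's adjusted p = 0.611) and Lipe at -0.36 (adjusted p = 0.718), both without overlap between the diets. The hepatocyte marker Alb read between 38398 and 49245 on high-fat arrays and between 34920.4 and 46802 on low-fat arrays, and of 9 tested hepatocyte markers 0 passed limma's test and 1 had an unadjusted p under 0.05. Their log2 fold changes were above 0 for 4 and below 0 for 5, with a median of -0.04. The 1 was Tat, the tyrosine aminotransferase gene, at 13797, 9815 and 10582 on high-fat arrays, against 18010.4, 19399.7 and 21258 on low-fat arrays. These groups did not overlap, at -0.79 on the log2 scale with an adjusted p of 0.0742, which fell under 0.05 in 5 of the alternatives, to 0.0263 without high-fat array 1. Of the tested markers of stellate cells (8), endothelium (7), bile duct (1), lymphocytes (6) and pancreatic acinar cells (5), 0 passed limma's test and 0 had an unadjusted p under 0.05. Their median log2 fold changes were 0.16, -0.10, 0.05, -0.01 and 0.76 in that order. All 5 acinar genes were above 0, and their median ran from -0.08 to 1.46 over the alternatives. With the replicate block 1 acinar gene passed, the chymotrypsinogen gene Ctrb1, at 0.77 on the log2 scale (limma's adjusted p = 0.0415, against 0.903 without the block). It read 1292, 3669 and 316 on high-fat arrays, against 682, 2410.2 and 183 on low-fat arrays, so that arrays of either diet differed widely. The part of other cell types in the Scd2 values was not tested, and in whole tissue more cells of a type and more RNA per cell cannot be told apart.

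Fads1, the delta-5 desaturase that acts late in the synthesis of arachidonate, read 2187, 2676 and 2644 on high-fat arrays, against 3321, 2633 and 2783.5 on low-fat arrays. High-fat array 1 was the lowest and low-fat array 1 the highest, and the other 4 arrays lay close together. The log2 fold change was -0.22 ± 0.14 (SE), with a 95% interval from -0.53 to 0.09 and an adjusted p of 0.731. It stood at -0.12 without high-fat array 1 and at -0.12 without low-fat array 1.

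**Figure D3:**
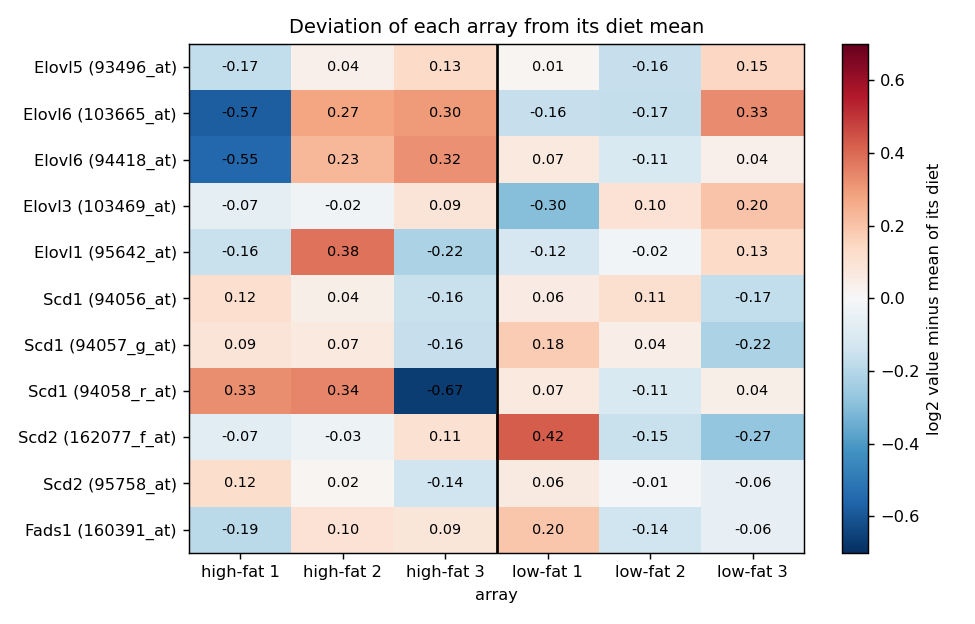
Log2 value of each member probe set on each array minus the mean of its diet (cell numbers and colour), with the 3 high-fat arrays left of the 3 low-fat arrays. Both Elovl6 probe sets are more than 0.5 below their diet mean on high-fat array 1, and the bright Scd1 probe sets are lowest on the array numbered 3 of either diet.

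Within a diet the deviations of the members differed in sign from gene to gene. On high-fat array 1 the Elovl6 probe sets lay 0.57 and 0.55 below the mean of that diet on the log2 scale, while the Scd1 probe sets 94056_at and 94057_g_at lay 0.12 and 0.09 above it. On the arrays numbered 3 the same Scd1 probe sets were the lowest of either diet, at -0.16 and -0.16 from the mean on the high-fat diet and at -0.17 and -0.22 on the low-fat diet. Elovl5 was the highest of its diet on these arrays, at 0.13 with high fat and 0.15 with low fat. The 3' to 5' ratio of the Gapdh control probe sets, a measure of RNA integrity, was also lowest there, at 0.889 on high-fat array 3 and 0.824 on low-fat array 3, against 1.04 to 1.23 elsewhere. Between diets it was 1.12 ± 0.20 with high fat and 0.98 ± 0.13 with low fat (SD, n = 3 each), with an exact permutation p of 0.3. With the log2 of this ratio as a covariate the log2 fold change of Elovl5 was 1.49 (limma's adjusted p = 7.01e-04). Those of the Scd1 probe sets 94056_at and 94057_g_at were 0.21 and 0.21 with the covariate, beside 0.32 and 0.33 without it. The dim Scd1 probe set stood at -0.77 with the covariate, beside -0.53 without it. The Elovl6 probe sets stood at -0.16 and -0.18 with it, beside -0.37 and -0.31 without it. Without both arrays numbered 3 Elovl5 kept its call at 1.41 (adjusted p = 0.00528).

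Genes that supply or surround these enzymes were then read from lists, with 1 probe set a gene. Among other elongases and desaturases 3 of 9 were tested and 0 passed limma's test (1 had an unadjusted p under 0.05). Elovl2, the next elongase of long polyunsaturated acids after Elovl5, read 2751, 2488 and 3359 on high-fat arrays, against 1748, 2117 and 3053 on low-fat arrays, with overlap and an adjusted p of 0.720. Degs1, a sphingolipid desaturase, was at -0.29 on the log2 scale (adjusted p = 0.518). Of the elongation cycle partners 2 of 6 were tested and 0 passed, also before adjustment. The ketoacyl reductase gene Hsd17b12 read 4276.5, 4288 and 4182.5 on high-fat arrays, against 3551, 3686 and 3639.6 on low-fat arrays. These groups did not overlap, but the fold was 1.17 with an adjusted p of 0.551. Hacd3, a dehydratase of the same cycle, was at -0.10 on the log2 scale (adjusted p = 0.872). Of 5 tested genes for cytochrome b5 and its reductases, some of which feed electrons to desaturases, 0 passed, also before adjustment, and their median log2 fold change was -0.05. The reductase gene Cyb5r1 was at -0.52 on the log2 scale (adjusted p = 0.589) and Cyb5b, an outer mitochondrial cytochrome b5, at -0.14 (adjusted p = 0.801).

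Of 5 tested genes for the synthesis of saturated fatty acids, which ELOVL6 and SCD1 use as substrates, 0 passed limma's test and 1 had an unadjusted p under 0.05, with a median log2 fold change of -0.02. Fasn, the fatty acid synthase, read 6433.5, 5565 and 4765 on high-fat arrays, against 3028, 3979 and 5266 on low-fat arrays. The diets overlapped, and the log2 fold change was 0.48 (adjusted p = 0.526). Slc25a1, the citrate carrier, was at -0.23 on the log2 scale (adjusted p = 0.785). Of 7 tested regulators 0 passed and 1 had an unadjusted p under 0.05, with a median of 0.01. Srebf1, which encodes SREBP-1, read 11009.6, 7765 and 7926 on high-fat arrays, against 6171, 6609 and 6109 on low-fat arrays. These groups did not overlap, with a fold of 1.40 and an adjusted p of 0.347. The retinoid receptor gene Rxra was at -0.44 on the log2 scale (adjusted p = 0.618), and Insig1 and Ppard were below the floor on all arrays.

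Of 7 tested genes of fatty acid activation 0 passed and 2 had an unadjusted p under 0.05. Acsl5, an acyl-CoA synthetase, read 4433, 4599 and 4511 on high-fat arrays, against 3304, 3182 and 3748 on low-fat arrays, which did not overlap, with a fold of 1.33 and an adjusted p of 0.238. The fatty acid transport protein gene Slc27a4 was at 1.74-fold (adjusted p = 0.465). Of 9 tested peroxisomal genes for the shortening of long acyl chains 1 rose and 8 did not pass, with a median log2 fold change of 0.22. The riser was Crat, carnitine acetyltransferase, which moves acetyl groups rather than shortening chains. It read 712, 949 and 878 on high-fat arrays, against 353, 416 and 336 on low-fat arrays, a 2.29-fold rise (adjusted p = 0.0177) whose call was lost with any array but high-fat array 1 left out. Ehhadh, an enzyme of peroxisomal oxidation, had an adjusted p of 0.0880.

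**Figure D4:**
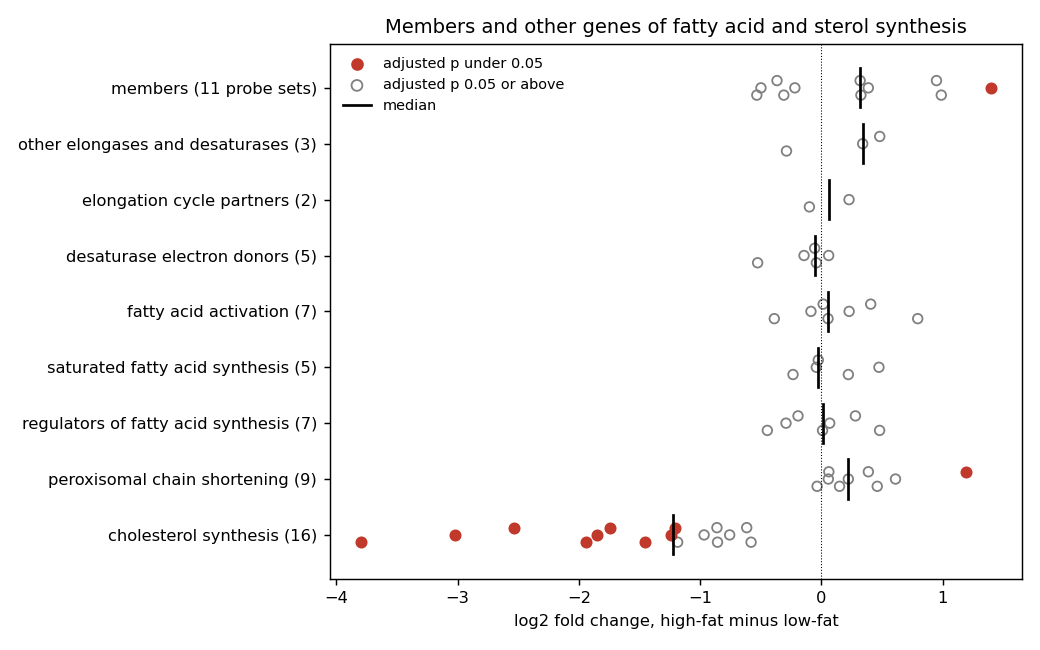
Log2 fold change, high-fat minus low-fat (horizontal axis), of the 11 member probe sets and of the tested genes of 8 lists, 1 point each; filled points have an adjusted p under 0.05 and the bar is the median. Members lie on both sides of 0 with Elovl5 at the right, and all 16 cholesterol synthesis genes lie left of 0.

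Cholesterol synthesis, which answers to the related factor SREBP-2, had the most calls of the lists read here. Of its 16 tested genes 9 fell, 0 rose and 7 did not pass, all 16 had a log2 fold change below 0, and the median was -1.22. Idi1, the isomerase that precedes farnesyl diphosphate, read 432, 566.5 and 594 on high-fat arrays, against 4419, 4269 and 4127 on low-fat arrays (adjusted p = 4.78e-05). Fdps, Msmo1 and Sqle had log2 fold changes of -1.75, -2.53 and -3.80, with limma's adjusted p-values of 0.00128, 0.00242 and 0.00262. These 4 calls survived the loss of any 1 array, and Fdft1 did too, while the other 4 of the 9 did not. None of the 11 member probe sets had a fold change as low as the median of this list; the lowest was -0.53, of the dim Scd1 probe set.

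The genes whose pattern over the 6 arrays was most like that of Elovl5 were Tuba1c, Cidea, Crisp2, Mecom and Litaf, with Pearson's r of 0.989, 0.988, 0.987, 0.987 and 0.986 between log2 values. These were the 5 highest of 7973 probe sets of other genes, of which 54 had r above 0.95. With 6 arrays in 2 groups, such a value mostly ranks genes by how cleanly the diets separate, and it is given as a description. Cidea, which encodes a lipid droplet protein, read 1056, 2557 and 3688 on high-fat arrays, against 40.2, 81.8 and 155 on low-fat arrays. Litaf, which encodes an endosomal membrane protein, read 1037, 1072 and 1101.5 on high-fat arrays, against 650.2, 563 and 589.8 on low-fat arrays. Cidea and Litaf passed limma's test (adjusted p = 0.00258 and 0.0240). Tuba1c, Mecom and Crisp2 did not pass it (adjusted p = 0.235, 0.537 and 0.848). Crisp2 and Mecom were dim, with all 3 low-fat arrays below the floor. They passed the filter through the high-fat arrays alone, and their r rests on low-fat values all set to the floor.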

How the data were processed

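The authors' deposited table gives 1 linear intensity for each of 12488 Affymetrix probe sets on 6 arrays. The labels name no software. The authors had scaled whole arrays, as the values show: the mean trimmed by 2% at each end was 500.4 on every array. Array medians ran from 171.5 to 188.4 and log2 values correlated between arrays with r from 0.937 to 0.962. Precision is limited by the number of arrays.

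Values under the pooled 30th percentile (68.9) were set to it and log2 was taken. Probe sets with at least 3 arrays above it were tested, without 66 control probe sets, with limma 3.58.1 in R 4.3.3 (lmFit, eBayes with trend, two-sided, Benjamini-Hochberg). Diets came from sample titles. Genes came from the platform table (10855 probe sets with 1 symbol, 396 with several, 1237 not listed), and RefSeq symbols changed 0 of 10839 matched. A gene in a list was read from its brightest probe set. Named genes are all members, up to 4 called genes a pathway list or, where fewer than 2 were called, the 2 of smallest p, and the 5 genes most like a called member. Arntl, Fdft1, genes below the floor and all genes named from cell type and sex-biased lists were chosen after their values were seen. The planned comparison of Fads2 with Fads1 was not run. Members and lists were chosen with earlier results of these data known. The test was tried on simulated data with independent noise on each array, a lower floor and no filter. The floor and filter chosen here were therefore not tried on it. Deviations from the diet mean correlated between same-numbered arrays with r of 0.07, 0.11 and 0.31 for numbers 1, 2 and 3. Between unlike numbers r was 0.11 and 0.06 among arrays 1 and 2, and from -0.21 to -0.12 where an array 3 was involved. The chosen fit did not pair arrays by number, and the replicate block was run as an alternative. The source of what same-numbered arrays share was not tested.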

Additional observations from a re-analysis of the deposited data

How the results depend on the processing

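The rise of Elovl5 kept its direction under all 19 alternatives, with log2 fold changes from 1.32 to 1.49, and its call under 18. With dim probe sets kept in, it was 1.40 with limma's adjusted p at 0.0869, so 0 member probe sets passed (by unadjusted p under 0.05, 3 of the 11 did in the chosen fit, and 812 of all 8950), and 8 probe sets passed in all. That alternative tests more probe sets and fits the variance trend over dim ones. Over all probe sets, 74 passed in the chosen fit, 20 without the trend of the variance, and 38 without both arrays numbered 3, an alternative chosen after seeing the data. With each array left out in turn the count ran from 27 to 76: 28 without array 2 of the high-fat diet, and 31, 27 and 43 without arrays 1, 2 and 3 of the low-fat diet. The replicate block gave 103 calls and changed no call of a member. There Elovl5 had limma's adjusted p at 9.88e-04, and the acinar gene Ctrb1 passed. In deviations from the diet mean, high-fat array 1 correlated best with low-fat array 2, at r of 0.11 against 0.07 with its own number. High-fat arrays 2 and 3 correlated best with the low-fat array of their own number, at r of 0.11 and 0.31. The other 10 member probe sets kept their sign and missed the threshold under every alternative that tested them; 94058_r_at was left untested in 2. Cholesterol synthesis calls numbered 9, but 1 without a filter, 4 without the trend and 5 without array 2 of the high-fat or array 1 of the low-fat diet. Circadian calls numbered 4, and ran from 0 to 7. The cause of these shifts was not tested. Dim probe sets near the floor have understated folds.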
